A study of Mus musculus with 14 samples.

Results

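The 40 genes described here encode the machinery that licenses replication origins, unwinds and copies DNA and supplies deoxynucleotides. They were chosen by a list of symbols, matched through GENCODE M21 to the Ensembl transcripts of the deposited tables, and make up 40 of the 14248 genes in those tables. Each gene is represented by the transcript with the highest mean RPKM (reads scaled to transcript length and library size). The list holds origin licensing factors (Orc1, Orc6, Cdc6, Cdt1 and its inhibitor Gmnn), the helicase subunits Mcm2 to Mcm7, the helicase activators Mcm10, Cdc45 and Gins1 to Gins4, the polymerase alpha-primase genes Pola1, Pola2, Prim1 and Prim2, and the polymerase delta and epsilon genes Pold1, Pold2, Pole and Pole2. It also holds the sliding clamp Pcna and its loader Rfc1 to Rfc5, the single-strand binding genes Rpa1 to Rpa3, the lagging-strand enzymes Fen1 and Lig1, and the nucleotide enzymes Rrm1, Rrm2, Tyms and Tk1.

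Origins are licensed in G1, when ORC, CDC6 and CDT1 load the ring of MCM proteins onto DNA; CDC45 and the GINS complex then turn that ring into the active helicase of S phase. Polymerase alpha-primase starts each strand, the clamp loader places PCNA on the primer, and polymerases delta and epsilon extend it. Many of these genes are targets of the E2F transcription factors, and their mRNAs rise together before S phase.

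Ribo-seq, which sequences the 25 to 35 nt of mRNA that a ribosome shields, and RNA-seq of 40 to 60 nt pieces were made from C57BL/6J mouse embryonic fibroblasts; cycloheximide at 100 µg per ml held ribosomes on mRNA. The groups were a scrambled control (Scram), knockdown of METTL3, the enzyme that places N6-methyladenosine on mRNA, knockdown of ABCF1, a ribosome-associated ATPase, and the mTOR kinase inhibitor Torin1 at 250 nM for 2 h. Scram and both knockdowns had 2 replicates per assay and Torin1 had 1 library per assay, 14 libraries in all. No source used here tells separate cultures from repeat libraries of 1 culture, and p-values therefore measure library-to-library spread alone, which may be technical. The labels name DMSO as the vehicle but not which groups received it, nor which line received Torin1.

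The depth implied by the files was 1764404 to 5155237 reads per Ribo-seq library and 1197860 to 3802703 per RNA-seq library. Replicate 1 files list transcripts from 1 read up, while replicate 2 and Torin1 files start at about 5 reads and give 1 transcript per gene, so replicates differ in how they were made as well as in number. In the RNA-seq libraries of replicate 2 and Torin1, Lars2 held 36.38% to 43.14% of reads and Tmem38b 8.45% to 11.15%, which left 584481 to 2039129 reads for all other genes; in replicate 1 these genes held 0% and at most 0.49%. Each knockdown had less of its target: Mettl3 had a Ribo-seq level of 21 and 11.8 scaled RPKM in Scram and 2.58 and 4.57 in METTL3 knockdown, and Abcf1 had 59 and 89.1 in Scram and 20.2 and 45 in ABCF1 knockdown. In RNA-seq Mettl3 had 9.73 and 5.20 in Scram and 2.82 and 4.04 in METTL3 knockdown, a small gap in replicate 2 that rests on 36 and 9 reads, and Abcf1 had 47.3 and 52.8 against 13.8 and 25.2. All 10 fibroblast markers were listed in each group, Krt5, Cldn4, Adgre1, Cd3e and Cdh5 were listed in none, and the summed RNA-seq level of 5 epithelial, 5 immune and 4 endothelial markers reached at most 29.5, 5.01 and 1.57 scaled RPKM, against 2630 to 4080 for the fibroblast markers.

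An E2F motif, a sequence feature that the choice of members did not use, was found in the promoters of some of these genes. The RefSeq promoter table (GRCm38.p6, 250 bases before to 50 after each annotated start) held 32 of the 40 members; Gins1, Gins2, Gins4, Gmnn, Pole, Prim2, Rfc2 and Mcm4 had no entry. Windows were searched on both strands for 4 spellings of the E2F motif, TTTCGCGC, TTTGGCGC, TTTCCCGC and TTTGCCGC, whose matches may overlap. At least 1 match was found in 13 of 32 members (40.6%), against 704 of 27025 genes (2.6%) and 744 of 32851 windows (2.26%). The 13 were Cdc6, Cdt1, Gins3, Lig1, Mcm3, Mcm5, Mcm6, Mcm7, Orc1, Pola1, Pold1, Pole2 and Rfc3. A match is a description of letters, not evidence of binding. The 4 stretches below, all upstream of the annotated start and read 5′ to 3′ on the gene's strand, show a run of 2 overlapping matches in Mcm5, the same kind of run and a further match in Mcm6, and single matches in Cdc6 and Pola1; capitals mark the matches. They lie at chr8:75109319-75109398 (plus strand, Mcm5), chr1:128359736-128359835 (minus strand, Mcm6), chr11:98907981-98908040 (plus strand, Cdc6) and chrX:93632266-93632325 (minus strand, Pola1).
Mcm5: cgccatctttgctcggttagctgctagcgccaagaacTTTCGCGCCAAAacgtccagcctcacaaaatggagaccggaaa
Mcm6: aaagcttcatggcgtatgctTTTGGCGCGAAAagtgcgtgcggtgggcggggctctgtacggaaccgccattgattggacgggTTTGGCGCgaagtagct
Cdc6: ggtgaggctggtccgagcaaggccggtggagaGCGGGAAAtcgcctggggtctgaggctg
Pola1: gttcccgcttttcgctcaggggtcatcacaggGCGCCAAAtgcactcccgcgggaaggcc

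The replication genes were well expressed in Scram cells, and short members carried more footprints per RNA than long ones. Levels below are RPKM scaled so that each library of an assay has the same median over tested genes. Over the 36 members listed in all 14 libraries, the median Ribo-seq level was 138 and 89 in the Scram replicates, against 36 and 28.2 over 6961 genes listed in all libraries. Their median RNA-seq level was 25.3 and 20.8, against 12.8 and 11.2. The median of translational efficiency (TE, log2 of the Ribo-seq over the RNA-seq level, 1 added to each) was 2.11 and 1.32, against 1.42 and 1.30 for all these genes. The members thus stood above the typical gene in RNA and footprints in both replicates, and in TE by a margin only in replicate 1. The 36 include Mcm6 by the transcript of highest mean RPKM. In Scram replicate 1 that transcript stood at 1.79 in Ribo-seq and 0.92 in RNA-seq, against 134.3 and 44.7 for another Mcm6 transcript.

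By role, Tk1 had the highest Ribo-seq level of the members in both Scram replicates, at 653.6 and 473.6, followed by Tyms in replicate 1 (445.3) and Rrm2 in replicate 2 (271.8). Among licensing factors, Orc1, the ATPase of the origin complex, stood at 6.13 and 5.99 while Orc6 stood at 214.4 and 130.3, Cdt1 at 216.5 and 117.8 and Gmnn at 141.5 and 117.7. The catalytic polymerase subunits were low, at 4.24 and 7.25 for Pola1, 16.9 and 16.0 for Pold1 and 11.5 and 6.23 for Pole, and their partners Pola2 (70.8 and 44.4), Pold2 (179.3 and 77.4) and Pole2 (53.3 and 21.8) were several times higher in each replicate. For RNA the gap was narrower, at 11.6 and 6.67 for Pola1 against 31.4 and 21.5 for Pola2, and Pole had more RNA than Pole2 (22.7 and 12.1 against 9.51 and 7.76). Among the single-strand binding genes, the smallest subunit had the most footprints in Scram, with 360.2 and 131 for Rpa3 against 132 and 72.2 for Rpa2, at RNA levels of 20 and 18.8 against 21.7 and 14.2.

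Within multi-subunit complexes, footprints were closer to each other than RNA levels for some and far apart for others. The 6 subunits of the MCM ring, which is built from 1 copy of each, spanned 1.29-fold to 2.15-fold in Ribo-seq within a library and 1.65-fold to 2.45-fold in RNA-seq, with Mcm7 the highest in Ribo-seq in 6 of 7 libraries and Mcm5 in the other. The small clamp loader subunits Rfc2 to Rfc5 spanned 1.27-fold to 2.25-fold in Ribo-seq and 1.91-fold to 3.16-fold in RNA-seq. Rfc2 had the lowest RNA-seq level of these 4 in each library (8.15 and 8.95 in Scram). It had 166.5 and 59.6 in Ribo-seq, the highest of the 4 in Scram replicate 1. RNA-seq RPKM divides by transcript length, which is 4995 nt for Rfc2 against 1317, 1279 and 2796 nt for Rfc3, Rfc4 and Rfc5. By RNA-seq reads Rfc2 was not lowest in Scram, at 91 and 153 against 64 and 91 for Rfc3, so its rank depends on the annotated length. The GINS subunits, which also form a complex with 1 copy of each, were further apart. They spanned 5.88-fold to 15.7-fold in Ribo-seq, with Gins3 lowest in each library, and 4.42-fold to 15.5-fold in RNA-seq. The RNA-seq range leaves out Torin1, whose library does not list Gins1. Polymerase alpha-primase spanned 5.71-fold to 27.8-fold in Ribo-seq, with Pola1 lowest in each library, and 1.98-fold to 3.22-fold in RNA-seq. For ribonucleotide reductase, the large subunit Rrm1 had more RNA than the small subunit Rrm2 in Scram replicate 1 (110 against 40) but not in replicate 2 (77.7 against 82.2), while Rrm2 had more footprints in both.

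**Figure D1:**
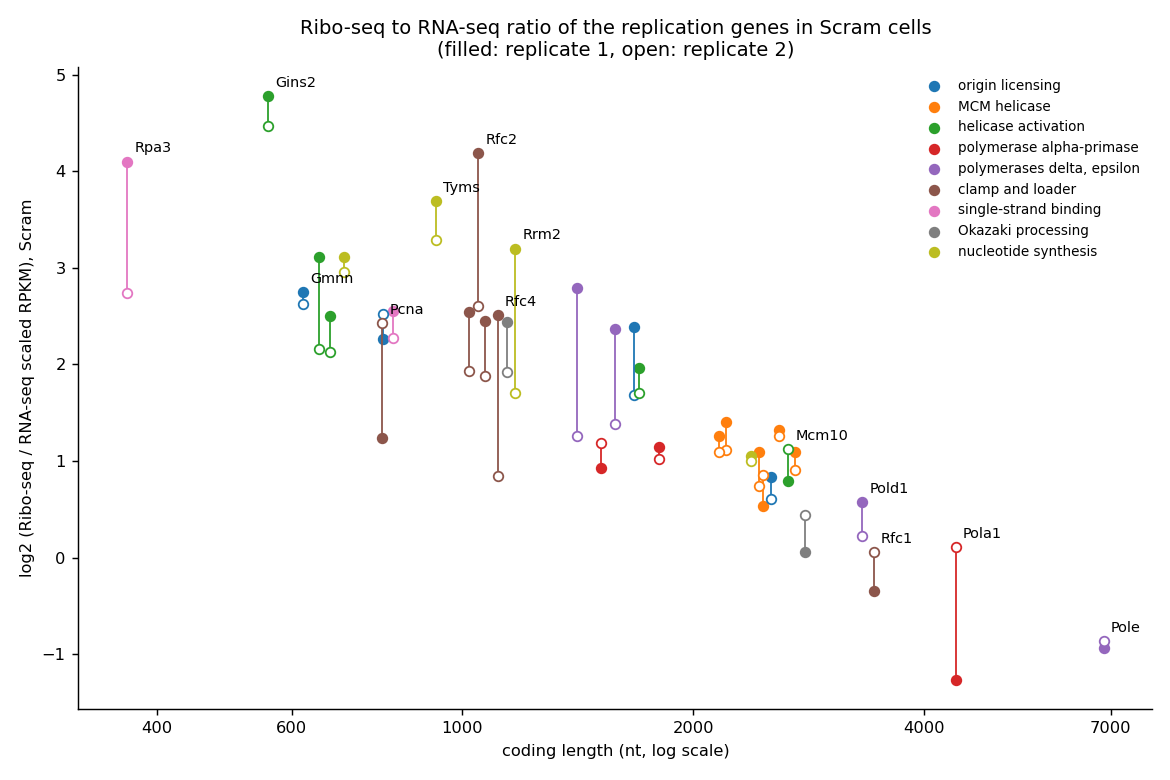
TE of 36 replication genes in Scram cells (y axis, log2 of the Ribo-seq over the RNA-seq level) against coding length (x axis, nt, log scale); filled and open points are replicates 1 and 2, joined by a line. Gins2 lies highest, at 4.78 and 4.47, and the members over 2100 nt lie at or below 1.40. Mcm6 is drawn by its transcript of highest mean RPKM, which had 18 Ribo-seq and 6 RNA-seq reads in replicate 1.

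TE in Scram ran from -1.26 for Pola1 in replicate 1 to 4.78 for Gins2. Pole, the catalytic subunit of polymerase epsilon and the longest member at 6852 coding nt, had TE values of -0.93 and -0.86. Gins2, whose transcript has 3900 nt for 558 coding nt, had 4.78 and 4.47 and stood at the 98.7 and 99.6 percentile of the 6961 genes. Across the 36 members, log coding length and TE had Pearson's r of -0.87 and -0.89 in the 2 replicates (Spearman's rho -0.86 and -0.91). Across all genes the same r was -0.79 and -0.77 (n = 6957), so the relation was not particular to replication genes. The points share libraries, and coding length enters the Ribo-seq RPKM itself. The replicate 1 TE of Mcm6, 0.54, rests on 18 Ribo-seq and 6 RNA-seq reads and enters these values.

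Some members differed more between the 2 Scram replicates than between groups. Pcna had an RNA-seq level of 71.9 in replicate 1 and 18.7 in replicate 2, while its Ribo-seq level was 171.5 and 105.2; its TE was therefore 1.24 and 2.43. GENCODE M21 also annotates the processed copies Pcna-ps1, Pcna-ps2 and Tyms-ps, and no source used here says how reads shared with such copies were assigned, so the Pcna and Tyms values are uncertain. Pola1 had TE of -1.26 and 0.11, Rfc4 2.51 and 0.85, and Pold2 2.79 and 1.26. For Mcm6, Rpa1, Cdc6 and Prim1, replicate 1 files list another transcript than those of replicate 2 and Torin1. Taken from the transcript listed in each library, the Scram Ribo-seq levels were 134.3 and 126.9 for Mcm6, 118.6 and 117.8 for Rpa1, 33.3 and 24.5 for Cdc6 and 117.9 and 38.7 for Prim1.

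No member passed the test in any comparison. The limma fit over all tested genes (9021 in RNA-seq, 9534 in Ribo-seq, 9428 for TE; 39 members tested, all but Prim1) called 0 genes, or 0%, in the comparisons of METTL3 knockdown, ABCF1 knockdown and Torin1 with Scram and of both knockdowns with each other. At an unadjusted p under 0.05 it gave 46 to 243 genes for METTL3 knockdown, 37 to 106 for ABCF1 knockdown and 203 to 304 for Torin1 against Scram. Between the knockdowns it gave 46 to 254. At most 2 of the 39 members (5.13%) were among them in any comparison. That count was reached in RNA-seq between the knockdowns (2.82% of all genes) and in Ribo-seq with Torin1 (3.19%). With the replicate number as a block, limma called 0 to 126 genes per comparison and 1 member, Gins1, described at the end of the Torin1 results. The block placed Torin1 with replicate 2 by its listing rule, a placement that the labels do not give. What follows are therefore differences from Scram of the same replicate, each replicate by itself, and how many members moved 1 way in both. Where the fitted change is printed, it has its standard error (SE).

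In RNA-seq, the replication genes were mostly higher in METTL3 knockdown than in ABCF1 knockdown. Of 36 members listed in each RNA-seq library, 26 were higher in METTL3 than in ABCF1 knockdown in both replicates, against 35.7% of all such genes, and 2 (Rrm2 and Pola1) were lower in both, against 26.4%. The median difference of the tested members was 0.34 in log2, against 0.04 for all genes tested, and the replicate medians were 0.36 and 0.24. Taken against Scram, 15 of 36 were higher with METTL3 knockdown in both replicates (27.3% of all genes) and 3, namely Mcm2, Rfc1 and Rfc4, were lower (26.1%). With ABCF1 knockdown 3 were higher, namely Rrm2, Pola1 and Orc1 (22.5%), and 17 were lower (31%). Both comparisons use the same Scram libraries. The member medians by replicate were -0.01 and 0.17 with METTL3 knockdown and -0.37 and -0.02 with ABCF1 knockdown. Those of all genes were -0.01 and 0.02, then -0.04 and -0.04. The shift from Scram thus lay mostly in replicate 2 with METTL3 knockdown and in replicate 1 with ABCF1 knockdown. Lower in replicate 1 and higher in replicate 2 were 15 of 36 members with METTL3 knockdown (24.7% of all genes) and 13 with ABCF1 knockdown (22.6%). Among the markers, the 1 epithelial gene tested, the keratin Krt14, moved the same way between the knockdowns and by more, at 1.86 and 1.62, with 0.87 and 0.45 from Scram in METTL3 knockdown and -0.99 and -1.17 in ABCF1 knockdown. The summed RNA-seq level of the 5 epithelial markers was 6.69 to 21.3 scaled RPKM in Scram, 12.9 to 29.5 in METTL3 knockdown and 2.95 to 8.92 in ABCF1 knockdown, with Epcam, Krt5 and Cldn4 not listed in any of them. The 7 fibroblast markers tested had a median difference of -0.20, 1 of them higher and 3 lower in both replicates. The part of these markers in the result was not tested. With Mcm6 taken from the transcript listed in each library, the METTL3 count of higher members was 14 and the ABCF1 count of lower members 18; without library scaling 12 were higher and 8 lower with METTL3 knockdown, 3 higher and 24 lower with ABCF1 knockdown, and 27 higher and 2 lower between the knockdowns.

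**Figure D2:**
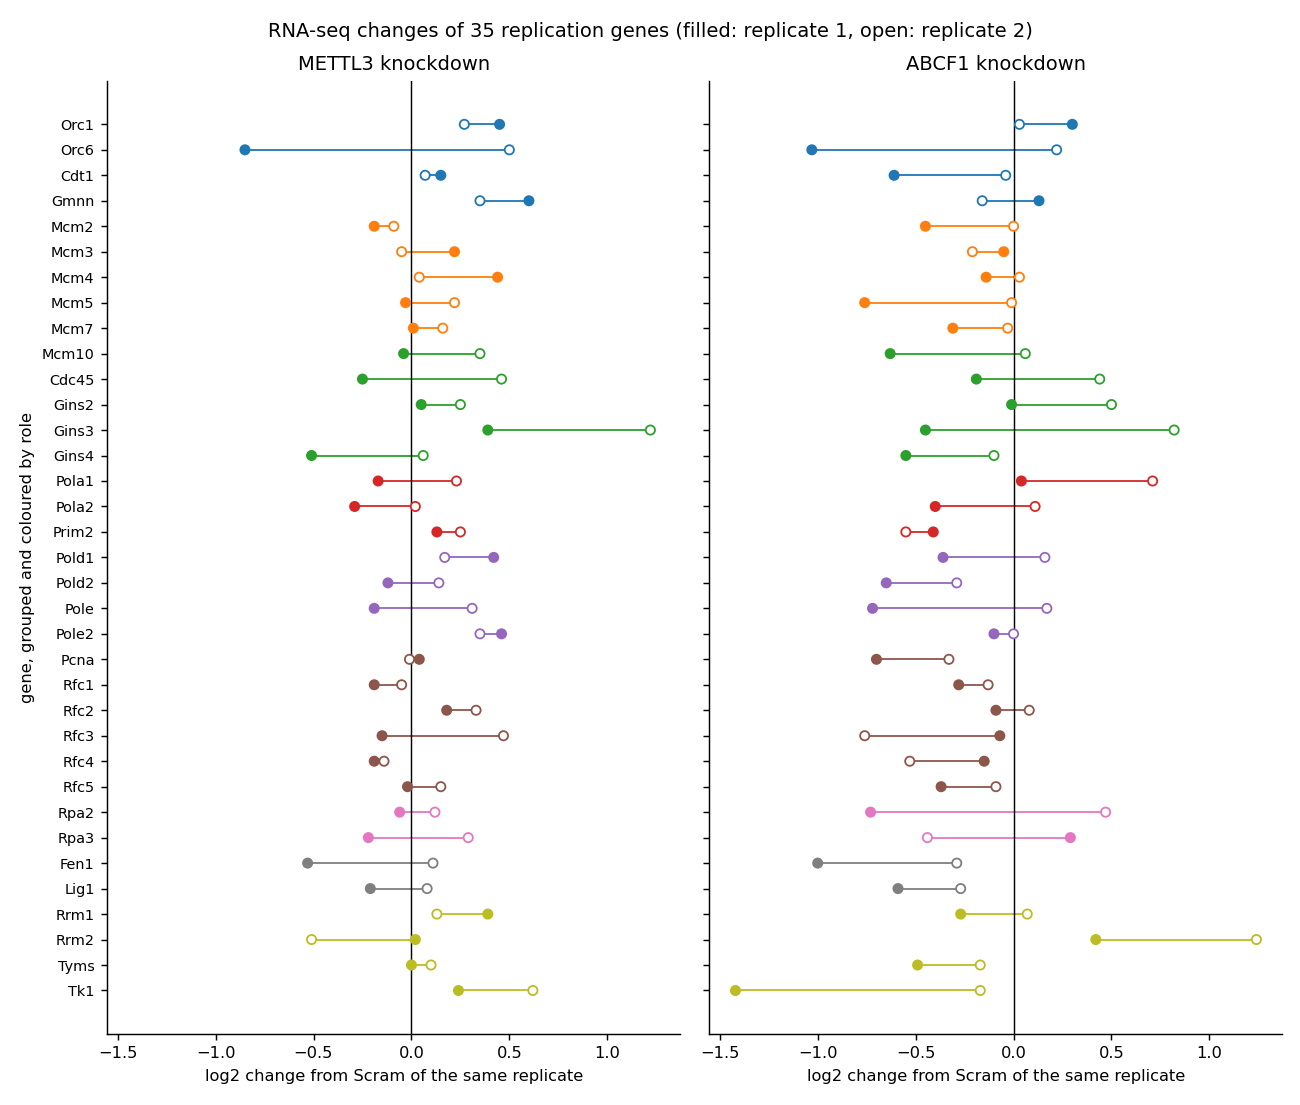
RNA-seq changes of 35 replication genes from Scram of the same replicate (x axis, log2 change; filled and open points are replicates 1 and 2), grouped by role, for METTL3 knockdown on the left and ABCF1 knockdown on the right; Mcm6, whose transcript differs between replicates, is not drawn. Tk1 lies at 0.24 and 0.62 on the left and at -1.42 and -0.17 on the right, and Rrm2 at 0.42 and 1.24 on the right.

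Tk1, the salvage kinase that phosphorylates thymidine, showed the widest gap between the knockdowns. Its RNA-seq level was 74.9 and 59.9 in Scram, 88.7 and 92.8 in METTL3 knockdown, 27.4 and 53.3 in ABCF1 knockdown and 67.6 with Torin1. Both METTL3 values were above and both ABCF1 values below all Scram values, and Tk1 was the 1 member of the 36 listed in each RNA-seq library to be at least 1.5-fold higher in METTL3 than in ABCF1 knockdown in both replicates (3.29% of all such genes). The difference was 1.66 and 0.79 in log2 by replicate, 1.22 (SE 0.37) in the limma fit, with an adjusted p of 1 (0.373 with the replicate block). The fitted change with ABCF1 knockdown was -0.79 (SE 0.37, limma adjusted p = 1), and its replicate values of -1.42 and -0.17 differ widely. Prim2, the large primase subunit, had a difference between the knockdowns of 0.54 and 0.79, and Gins1 of 0.92 and 1.07, the latter counted from 38 and 20 reads against 17 and 8. Gins1 was thus past 1.5-fold in both replicates too, but it is not among the 36 because the Torin1 library does not list it.

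Rrm2, the regulated small subunit of ribonucleotide reductase, went the other way. Its RNA-seq level was 40 and 82.2 in Scram, 40.6 and 57.6 in METTL3 knockdown, 54.1 and 195.1 in ABCF1 knockdown and 60.6 with Torin1. The ABCF1 values were the highest within each replicate, at changes of 0.42 and 1.24 from Scram, and the fitted change was 0.83 (SE 0.70, limma adjusted p = 1). The fitted change was -0.21 without ABCF1 replicate 2 and 1.75 without ABCF1 replicate 1. These fits set the ABCF1 library that is left against both Scram replicates, so they carry the gap between 40 and 82.2. The change within each replicate was positive and differed in size. Rrm1, its partner, changed by -0.27 and 0.07 with ABCF1 knockdown and by 0.39 and 0.13 with METTL3 knockdown.

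The other roles moved by smaller amounts in RNA. In METTL3 knockdown, the licensing inhibitor Gmnn was higher by 0.60 and 0.35 (fitted 0.48, SE 0.30, limma adjusted p = 1), Pole2 by 0.46 and 0.35, Orc1 by 0.45 and 0.27 and Gins3, a subunit of low level, by 0.39 and 1.22. Mcm2 was at -0.19 and -0.09, Rfc1 at -0.19 and -0.05 and Rfc4 at -0.19 and -0.14. In ABCF1 knockdown, 5 of the 6 clamp and loader genes were lower in both replicates, and so were both lagging-strand enzymes. Beside them stood 17 of 36 members and 31% of all genes. Among the 5 were Pcna (-0.70 and -0.33), Rfc3 (-0.07 and -0.76) and Rfc4 (-0.15 and -0.53). Fen1, the flap nuclease, was at 50.6 and 40.9 in Scram and 24.8 and 33.2 in ABCF1 knockdown, a fitted change of -0.65 (SE 0.29, limma adjusted p = 1). The MCM genes differed from Scram by -0.19 to 0.44 in METTL3 knockdown and by -0.76 (Mcm5, replicate 1) to 0.03 in ABCF1 knockdown, Mcm6 by its listed transcripts included. Set against each other, METTL3 knockdown had more RNA than ABCF1 knockdown in both replicates for 5 of the 6 (35.7% of all genes). The differences were 0.72 and 0.23 for Mcm5, 0.32 and 0.19 for Mcm7 and 0.26 and -0.10 for Mcm2.

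In Ribo-seq, the replicates disagreed on the direction of most members. Of 37 members listed in each Ribo-seq library, 22 were lower in replicate 1 and higher in replicate 2 with METTL3 knockdown, against 24.6% of all such genes, and 21 with ABCF1 knockdown, against 27.2%. The member medians were -0.26 and 0.26 in the METTL3 replicates and -0.36 and 0.18 in the ABCF1 replicates, with all genes between -0.02 and 0.06. Both knockdowns are set against the same Scram library in each replicate, so these pairs of values are not independent. Depth and the listing rule also differ between the replicates, and their part in the result was not tested. With METTL3 knockdown 6 members were lower in both replicates (26.6% of all genes) and 9 higher (30.7%); with ABCF1 knockdown 9 were lower (25%) and 6 higher (27%). Without scaling these counts were 11 and 8, then 10 and 7. Between the knockdowns, a comparison without Scram, 13 were higher in METTL3 knockdown in both replicates (34.1%) and 8 lower (28.9%), and without scaling these counts were 10 and 13.

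The MCM helicase shows this pattern in each of its subunits. Mcm5 had 183.2 and 144.4 in Scram, 129.3 and 200.3 in METTL3 knockdown and 133.9 and 185.7 in ABCF1 knockdown, so both knockdowns were below Scram in replicate 1 and above it in replicate 2. Mcm2, Mcm3, Mcm4 and Mcm7 had changes of -0.04 to -0.26 in replicate 1 and 0.06 to 0.45 in replicate 2 with METTL3 knockdown, and of -0.18 to -0.65 and 0.17 to 0.42 with ABCF1 knockdown. Mcm6, by its listed transcripts, had -0.41 and 0.25, then -0.35 and 0.27. The mean over replicates is thus near 0 for the ring, while each replicate is not.

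**Figure D3:**
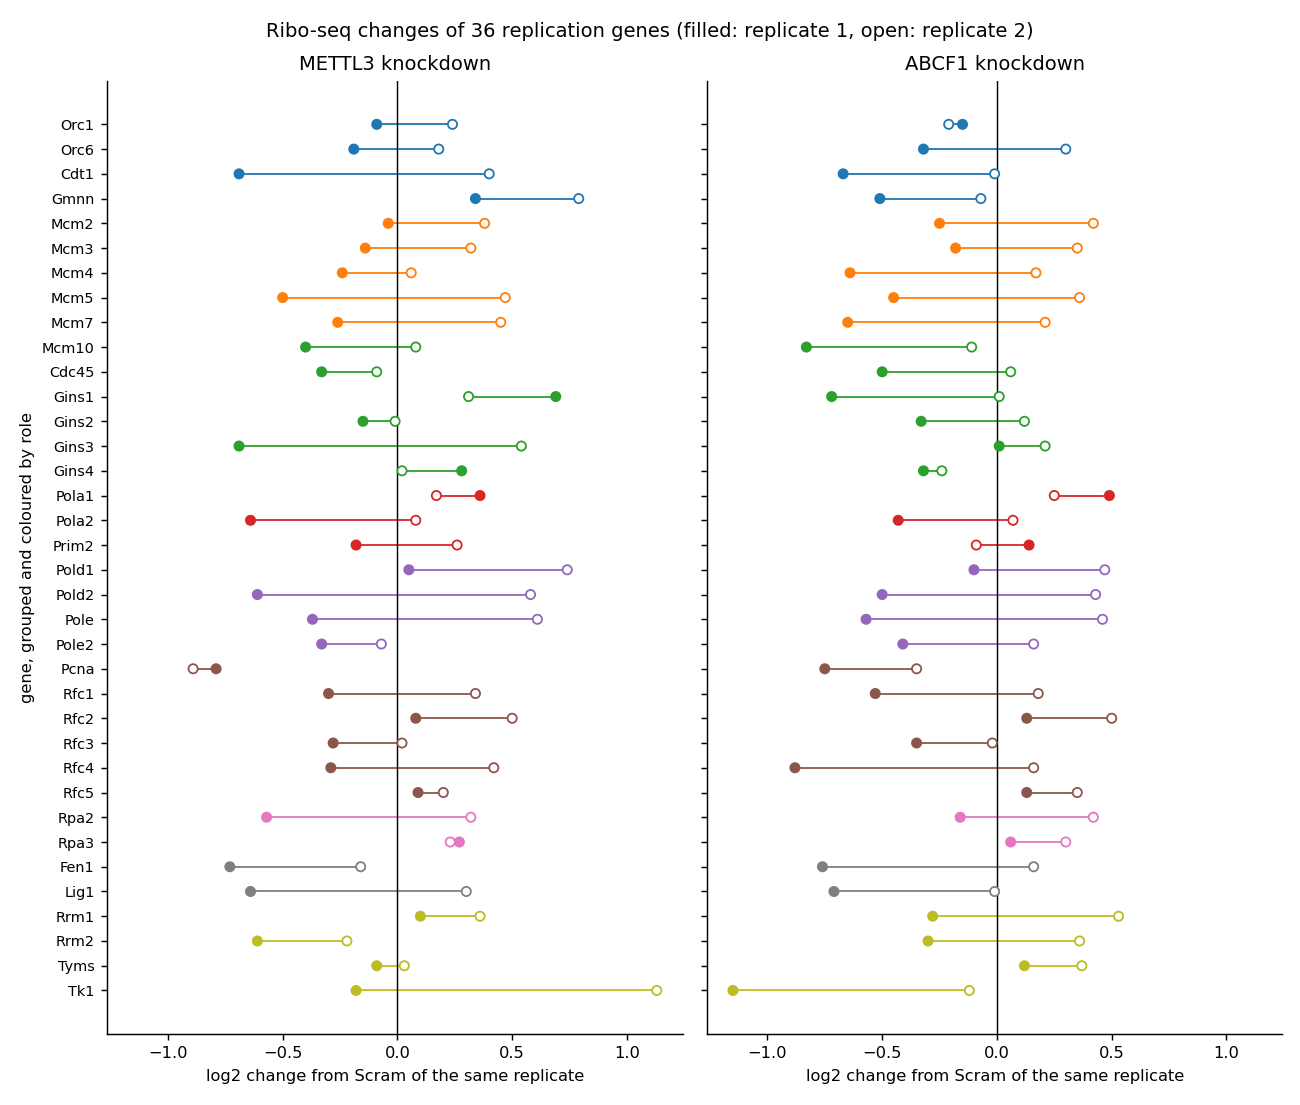
Ribo-seq changes of 36 replication genes from Scram of the same replicate (x axis, log2 change; filled and open points are replicates 1 and 2), grouped by role, for METTL3 knockdown on the left and ABCF1 knockdown on the right; Mcm6 is not drawn. The filled points of the MCM genes lie left of 0 and the open ones right of it, while Pcna lies at -0.79 and -0.89 on the left.

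Pcna, the clamp that tethers polymerases to DNA, was the 1 member at least 1.5-fold lower in footprints with METTL3 knockdown in both replicates (3.07% of all genes). Its Ribo-seq level was 171.5 and 105.2 in Scram, 98.8 and 56.3 in METTL3 knockdown, 101.2 and 82.5 in ABCF1 knockdown and 93.6 with Torin1. All 4 knockdown values and the Torin1 value were below both Scram values, the replicate 1 knockdown levels only just below Scram replicate 2. The fitted change was -0.84 (SE 0.43, limma adjusted p = 1; with the replicate block SE 0.22 and adjusted p = 0.209) for METTL3 knockdown and -0.55 (SE 0.43, limma adjusted p = 1) for ABCF1 knockdown. Its RNA-seq level hardly differed with METTL3 knockdown, 71.9 and 18.7 in Scram against 74.1 and 18.6, so TE changed by -0.83 and -0.88 (fitted -0.86, SE 1.19, limma adjusted p = 1). With ABCF1 knockdown RNA and footprints were lower by like amounts, and TE changed by -0.06 and -0.02.

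**Figure D4:**
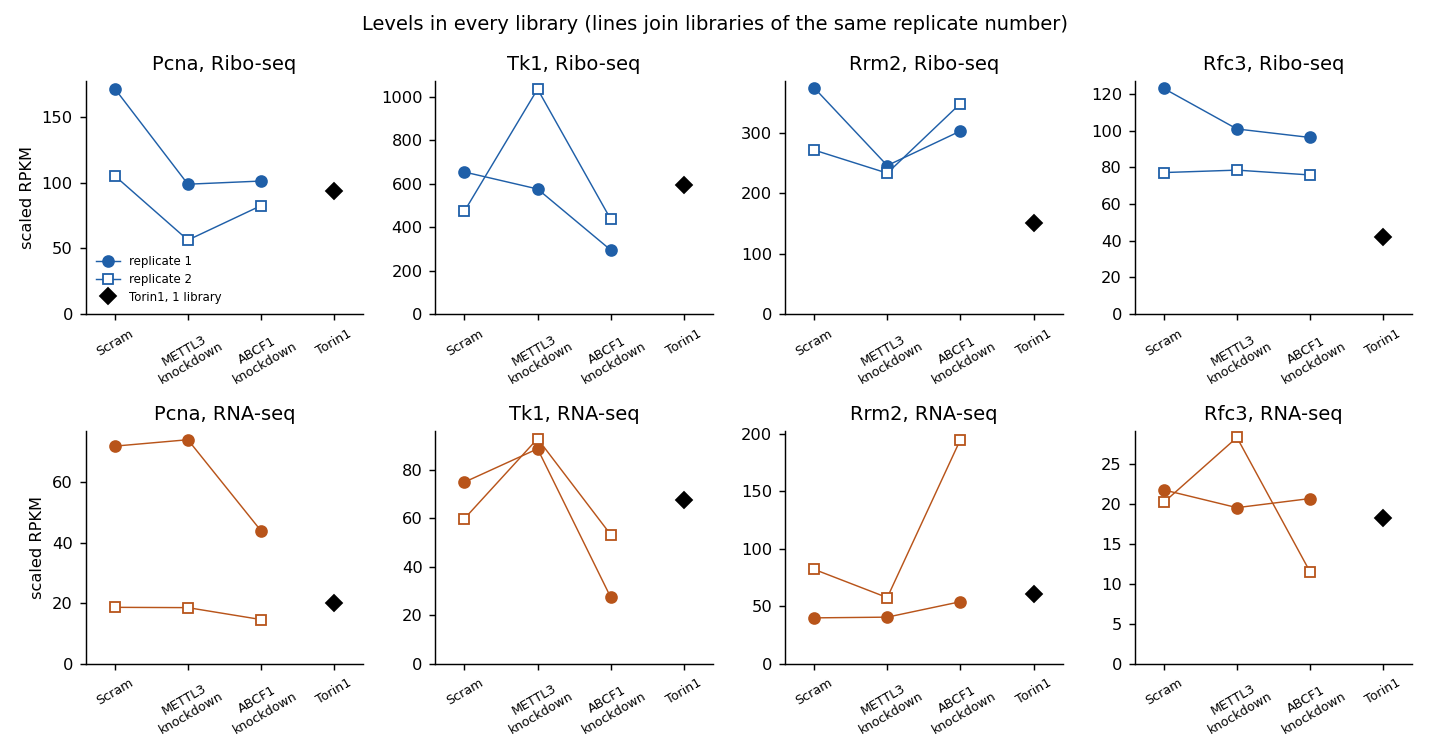
Levels of Pcna, Tk1, Rrm2 and Rfc3 in every library (y axis, scaled RPKM; top row Ribo-seq, bottom row RNA-seq); circles and squares are replicates 1 and 2, joined within a replicate, and the diamond is the Torin1 library. Pcna footprints lie below Scram in both METTL3 knockdown libraries while its RNA does not, and Rrm2 and Rfc3 footprints are lowest with Torin1.

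Tk1 and Gmnn were the 2 members at least 1.5-fold higher in Ribo-seq in METTL3 than in ABCF1 knockdown in both replicates (3.01% of all genes). Gmnn had 141.5 and 117.7 in Scram, 179.3 and 204.2 in METTL3 knockdown, 98.8 and 112 in ABCF1 knockdown and 109.8 with Torin1; the METTL3 values were the 2 highest. The difference between the knockdowns was 0.85 and 0.86, and 0.86 (SE 0.26, limma adjusted p = 1) in the fit. Tk1 had 653.6 and 473.6 in Scram, 575.5 and 1035 in METTL3 knockdown and 294.9 and 436.4 in ABCF1 knockdown, a difference between the knockdowns of 0.96 and 1.24 (fitted 1.10, SE 0.44, limma adjusted p = 1). Against Scram, the METTL3 values of Tk1 differed in direction, at -0.18 and 1.13, and the ABCF1 values were -1.15 and -0.12 (fitted -0.63, SE 0.44, limma adjusted p = 1).

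Among the other members, Fen1 (-0.73 and -0.16), Rrm2 (-0.61 and -0.22) and Cdc45 (-0.33 and -0.09) had fewer footprints in both METTL3 replicates. Gins1 (0.69 and 0.31), Pold1 (0.05 and 0.74) and Rfc2 (0.08 and 0.50) had more. With ABCF1 knockdown Mcm10, the helicase activator, had -0.83 and -0.11 and Lig1, the ligase of Okazaki fragments, -0.71 and -0.01, while Pola1 had 0.49 and 0.25 and Tyms, thymidylate synthase, 0.12 and 0.37.

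TE followed no single direction. With METTL3 knockdown 10 of 36 members were lower in both replicates (26.4% of all genes) and 2, Mcm2 and Rfc5, were higher (29.3%). At least 1.5-fold lower in both were Pcna and Gins3 (1.96% of all genes); Gins3 had -1.07 and -0.68 at an RNA-seq level of 1.70 to 5.28. With ABCF1 knockdown 12 were higher in both (30%) and 7 lower (23.1%). Rrm2 had -0.73 and -0.88, its RNA change being above its footprint change in both replicates (fitted -0.79, SE 0.82, limma adjusted p = 1), and Tyms had 0.61 and 0.54 (fitted 0.59, SE 0.62, limma adjusted p = 1). Between the knockdowns 17 members were lower in METTL3 knockdown in both replicates (29.1%) and 7 higher (23.7%). TE divides by RNA, so the RNA values of the 26 members above enter this count too. The MCM genes had TE changes of -0.27 to -0.68 in replicate 1 and 0.01 to 0.38 in replicate 2 for Mcm3, Mcm4, Mcm5 and Mcm7 with METTL3 knockdown, and 0.15 and 0.47 for Mcm2.

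Torin1 blocks mTOR, the kinase that keeps the cap-binding protein eIF4E free of its repressors. With 1 library per assay, the Torin1 values below are ratios to Scram replicate 2, which shares its listing rule, with 95% exact counting intervals from the recovered reads; they cover counting error only and are no test of the treatment. In Ribo-seq, 23 of 38 members with at least 20 reads in each library were higher with Torin1 (50.7% of all genes) and 15 lower (49.3%). At least 1.5-fold lower were 6 members, Rrm2, Rfc2, Rfc3, Rfc5, Orc6 and Gins2 (12.5% of all genes), and at least 1.5-fold higher were 4, Cdt1, Mcm3, Mcm10 and Pold1 (10.1%). In RNA-seq 20 of 31 were higher (53.8%) and 11 lower (46.2%), with Cdt1 the 1 member past 1.5-fold up (4.62%) and none down (2.33%). Without scaling, 29 members were higher and 9 lower in Ribo-seq (66.7% of all genes higher) and 9 higher and 22 lower in RNA-seq (30.8% higher).

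The subunits of the clamp loader parted by size. The 4 small subunits had fewer footprints than in Scram: the ratio was 0.613 (0.474 to 0.786) for Rfc2, 0.546 (0.432 to 0.684) for Rfc3, 0.680 (0.522 to 0.879) for Rfc4 and 0.538 (0.416 to 0.690) for Rfc5. Rfc1, the large subunit that opens the clamp, had 1.39 (1.13 to 1.70). Rfc3 stood at 77.2 in Scram replicate 2 and 42.2 with Torin1, below all 6 other Ribo-seq libraries, in which it ranged from 75.9 to 123.1. The RNA ratios of the 4 small subunits were 0.905 to 1.04, and their TE changes were -0.60 to -0.74. The fitted Ribo-seq changes, which set Torin1 against both Scram replicates, were -1.19 (SE 0.43, limma adjusted p = 0.891) for Rfc3 and -1.32 (SE 0.61, limma adjusted p = 0.891) for Rfc5, and the fitted TE change of Rfc5 was -1.03 (SE 0.67, limma adjusted p = 1).

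**Figure D5:**
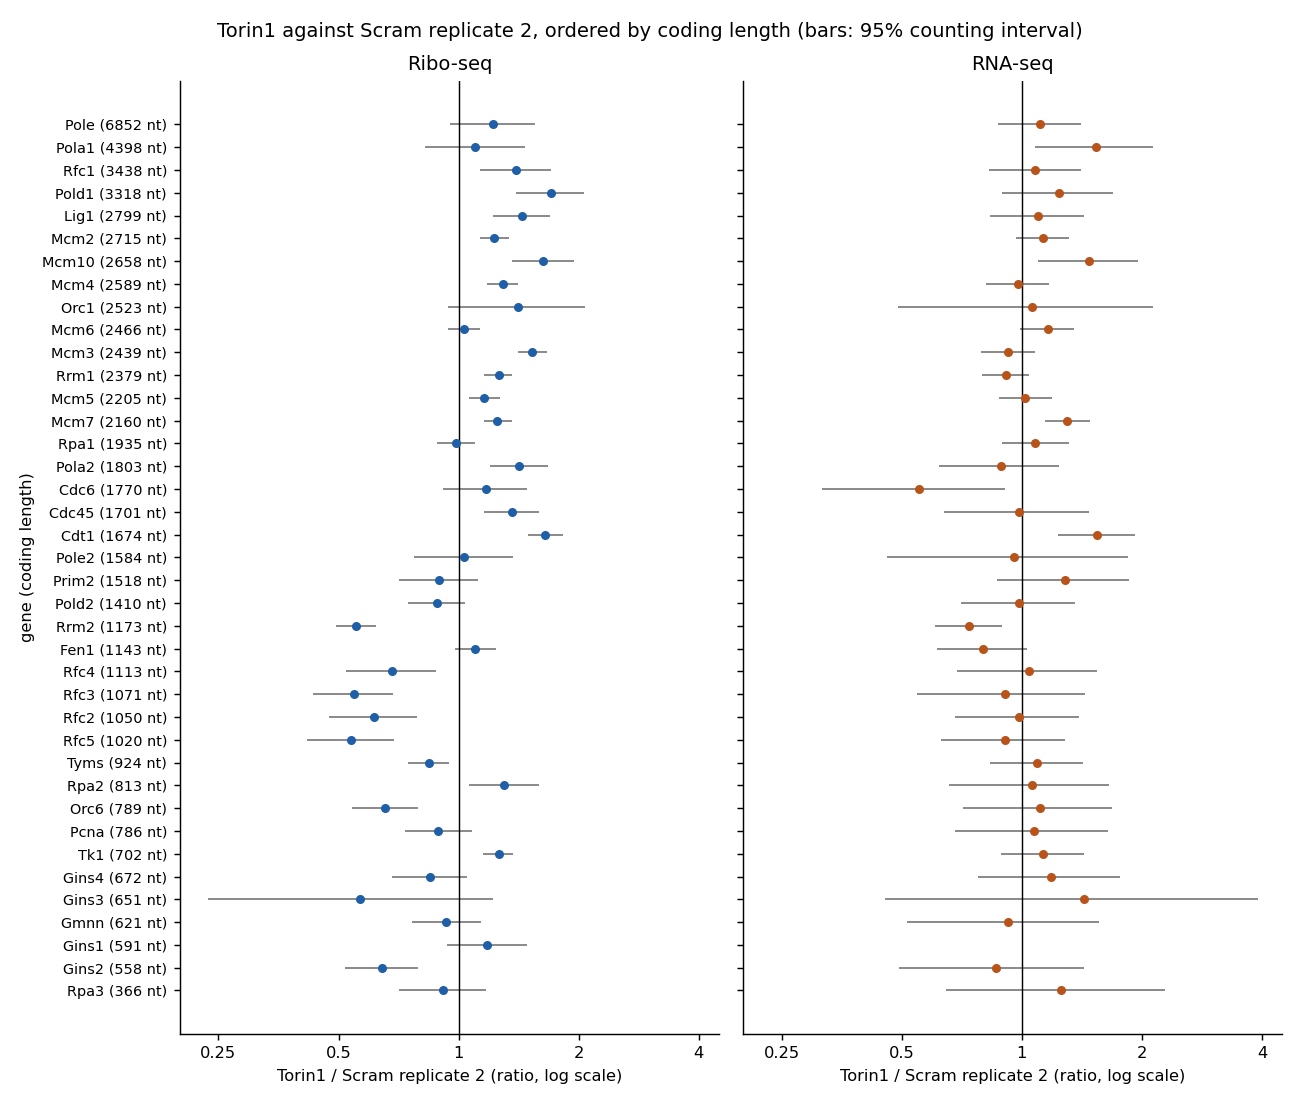
Ratio of Torin1 to Scram replicate 2 (x axis, log scale) in Ribo-seq and RNA-seq for the replication genes, ordered by coding length with the longest on top; bars are 95% counting intervals, and members under 20 reads are drawn too. In Ribo-seq the 14 genes over 2100 nt lie right of 1, from 1.03 for Mcm6 to 1.70 for Pold1, and Rfc2 to Rfc5 and Rrm2 lie left of it.

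Ribonucleotide reductase split in the same manner. Rrm2 had 271.8 in Scram replicate 2 and 150.5 with Torin1, a ratio of 0.554 (0.493 to 0.620), beside an RNA ratio of 0.737 (0.604 to 0.893); the fitted Ribo-seq change was -1.08 (SE 0.35, limma adjusted p = 0.891). Rrm1 had 1.26 (1.16 to 1.36) in footprints and 0.913 in RNA. Orc6 had 0.654 and Gins2 0.644 in footprints, with RNA ratios of 1.11 and 0.861 counted from 30 and 19 Torin1 reads. Tk1 had 1.26 and Tyms 0.841. Pcna had 0.890 (0.734 to 1.08), an interval that includes 1.

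All 6 MCM genes had ratios above 1 in Ribo-seq with Torin1: 1.23 for Mcm2, 1.53 for Mcm3, 1.29 for Mcm4, 1.16 for Mcm5, 1.03 for Mcm6 and 1.25 for Mcm7, with only the interval of Mcm6 reaching below 1. Their RNA ratios ran from 0.924 (Mcm3) to 1.30 (Mcm7). Pold1, the catalytic subunit of polymerase delta, had the highest ratio among the members at 1.70 (1.39 to 2.06; fitted change 0.69, SE 0.46, limma adjusted p = 0.891). Cdt1, which loads the ring, had 1.65 in footprints and 1.54 in RNA, so its TE changed by 0.11. Mcm10 likewise had 1.63 and 1.47.

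Footprint ratios with Torin1 followed coding length, within the members and across the genome. The length classes were set after the values were seen. Of 16 members of at most 1200 coding nt, 12 were lower with Torin1 (67.9% of 3089 genes of this length), with a median log2 change of -0.24. Of 8 members of 1200 to 2100 nt, 5 were higher (52.6% of 2382 genes of this length). Of 14 members over 2100 nt all 14 were higher, at a median of 0.35 (73.7% of 2287 genes of this length). Log coding length and the Ribo-seq change had r of 0.54 over 38 members and 0.41 over 7758 genes (rho 0.61 and 0.42), and the points share 2 libraries. The small loader subunits, of 1020 to 1113 coding nt, had ratios of 0.538 to 0.680. The lowest log2 change of the short members was -0.88 (Rfc5), beside a median of -0.23 over all genes of at most 1200 nt. Fen1 at 1143 nt had a ratio of 1.10 and Tk1 at 702 nt 1.26. The part of length in these ratios was not tested. Over genes of at least 20 reads in 4 libraries, 5 of 31 members were at least 1.5-fold lower in TE (15.1% of all genes) and 2, Mcm3 and Pola2, higher (7.82%).

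Gins1 was not called in the fit without the block, and was called with it. Its transcript had 45 RNA-seq reads in Scram replicate 2 and was not listed with Torin1, where the file starts at about 5 reads, so it entered at 0; in Ribo-seq it had 203 and 127 reads, a ratio of 1.18. The blocked limma fit gave RNA-seq -3.67 (adjusted p = 0.0386, 0.111% of genes called) and TE 3.85 (adjusted p = 0.0217, 0.552% called), and the fit without the block -3.68 (limma adjusted p = 0.619) and 3.52 (limma adjusted p = 0.873). Without the block, a pseudocount of 0.1 in place of 1 also called its TE, at 6.74. These sizes depend on the pseudocount and are no measured fold.

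Other genes around the replication fork were counted from lists of the same kind. None of the 25 tested genes of the wider replisome, 13 of nucleotide supply, 11 of replication-coupled chromatin and 25 G1/S regulators passed the limma test in RNA-seq in any comparison. The median RNA-seq difference between METTL3 and ABCF1 knockdown was 0.08 for the wider replisome, 0.37 for nucleotide supply, 0.24 for G1/S regulators and 0.23 for replication chromatin, beside 0.34 for the members and 0.04 for all genes. Among them, Shmt1, which supplies one-carbon units to thymidylate synthesis, had 1.08 and 0.51, and Cmpk1, a pyrimidine nucleotide kinase, -0.67 and -1.34. The cyclin gene Ccne1 had 0.57 and 1.67, and Rbl2, an RB-family repressor of E2F genes, -1.18 and -1.68. In the wider replisome Recql4 had 0.64 and 0.63, and Tipin -0.06 and -2.54. In replication chromatin Nasp had -0.19 and -0.96, and Asf1a -0.18 and -2.9. Among the 12 motif-bearing members listed in each RNA-seq library 10 were higher in both replicates, with a median of 0.38. Among the 17 others with a promoter entry 10 were, with a median of 0.23, and 35.7% of all genes listed in each RNA-seq library were. A part of the motif or of the genes named here in the member difference was not tested.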

How the data were processed

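Per the submitters' processing notes, the authors trimmed reads with cutadapt and mapped them with Bowtie to GRCm38, and they deposited RPKM per Ensembl transcript; no source used here gives versions, annotation or the handling of multiply mapping reads. Of 22453 transcripts 22356 matched GENCODE M21. RPKM times length was a whole multiple of 1 read, within 0.02, for 98.7% to 98.8% of Ribo-seq values by coding length and for 80.5% to 85.4% by transcript length in RNA-seq, which gave the reads and depths. Libraries were scaled to a common median, and log2(RPKM + 1) was fitted with limma 3.58.1 in R 4.3.3 (eBayes with trend, two-sided, Benjamini-Hochberg) over genes listed in at least 0.5 of libraries at a mean of at least 1 RPKM; unlisted values entered at 0, and the lone Torin1 library was taken to have the spread of the others. TE changes were interactions. The script was tested on simulated data. Same-numbered libraries deviated together (RNA-seq r of 0.82 to 0.88, Ribo-seq r of 0.91 to 0.94), so the replicate numbers were taken as pairs; the main fit has no block. Members and lists were chosen with earlier results of these data known. Genes named in each comparison were Mcm2 to Mcm7, Pcna, Rrm1, Rrm2 and up to 4 members per direction with the largest changes, alike in both replicates, and of other lists the 2 with the lowest p; any other member was named by role. Alternatives were scaling, pseudocount, filters, the transcript kept, the block and leaving out each library.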

Additional observations from a re-analysis of the deposited data

Results flagged for a closer look

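Some members moved 1 way in both replicates of METTL3 knockdown and the opposite way in both replicates of ABCF1 knockdown; the limma test of the difference between the knockdowns gave an adjusted p of 1 for each, and both knockdowns share their Scram libraries. Among the 37 members listed in the 6 Scram and knockdown RNA-seq libraries these were Tk1 (difference 1.22, SE 0.37), Gins1 (1.00, SE 0.30), Prim2 (0.67, SE 0.27), Pole2 (0.46, SE 0.32), Cdt1 (0.44, SE 0.27), Tyms (0.38, SE 0.32) and Mcm7 (0.26, SE 0.26), all higher in METTL3 knockdown. For Pole2 (-0.0028 in ABCF1 replicate 2) and Tyms (0.0022 in METTL3 replicate 1) 1 of the 4 changes was close to 0. In Ribo-seq they were Gmnn (0.86, SE 0.26) and Gins4 (0.43, SE 0.76). In TE they were Tyms (-0.67, SE 0.62) and Fen1 (-0.60, SE 0.45), both lower in METTL3 knockdown. The share of all genes that moved in this way was not counted, so these numbers are no result about the members as a group. No explanation was tested.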

How the results depend on the processing

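The unblocked fit had 3 residual degrees of freedom per assay, and depth limits genes of few reads, so small changes were not detectable. Same-numbered libraries deviated together, and without a block that shared deviation stays in the residual and in the SE. The SE of Pcna in Ribo-seq, for example, was smaller with the block. A high adjusted p from the unblocked fit is therefore no evidence that a member was unchanged. Without scaling, the median change of the members was -0.42 in RNA-seq and 0.33 in Ribo-seq for Torin1, 0.87 for its TE, and -0.06 in Ribo-seq and -0.33 in TE for METTL3 minus ABCF1 knockdown; the median of all genes moved with it, to -0.49, 0.27, 0.78, -0.06 and -0.17. With the replicate block, limma called 10 genes including 1 member (Gins1, -3.67) in RNA-seq and 126 in Ribo-seq for Torin1, 52 including 1 member (Gins1, 3.85) in its TE, 1 in Ribo-seq for METTL3 knockdown and 5 in Ribo-seq between the knockdowns; it changed no other call. For Torin1 TE, a pseudocount of 0.1 gave 22 calls including 1 member (Gins1, 6.74), and no filter gave 54. Leaving out 1 library at a time called 0 genes throughout. It moved the member median of METTL3 minus ABCF1 knockdown between 0.17 and 0.48 in RNA-seq, -0.08 and 0.27 in Ribo-seq and -0.34 and -0.02 in TE, and it moved Rrm2 RNA in ABCF1 knockdown to -0.21 without ABCF1 replicate 2 and 1.75 without ABCF1 replicate 1. The Ribo-seq difference of Gins4 between the knockdowns ranged from -0.31 (without METTL3 replicate 1) to 1.00 (without ABCF1 replicate 1). These fits have no block, so the library left in a group was set against both replicates of the other group. Within each replicate Gins4 was higher in METTL3 than in ABCF1 knockdown (285.2 against 187.2, then 102 against 85.0). Rrm2 RNA was likewise higher in ABCF1 knockdown than in Scram within each replicate. Taking Mcm6 by its listed transcripts, added after the data were seen, moved 2 of the RNA-seq counts of members alike in both replicates by 1 member. The other alternatives kept the direction and call of each fitted member value printed above.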
